A study of Mus musculus with 6 samples.

Results

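The ZBTB zinc-finger repressor genes were followed in 6 Affymetrix mouse expression arrays of sorted DN2 thymocytes, with 3 arrays for each genotype, wild type and E2A deficient. Members were all genes whose symbol in the array annotation is Zbtb followed by a number and optional letters, with Zbtb16 left out. Of the 18193 genes measured, 38 were members. Zbtb8os also has such a symbol but was read only by probe sets that name a further gene, so it is not analysed here. All cells came from fetal thymus on the FVB background, and the labels give wild type or E2A deficient as the genotype, with no allele, fetal age or number of animals. DN2 cells are early thymocytes without CD4 or CD8 that are about to settle on the T-cell fate. E2A is the name of the E protein transcription factors made from Tcf3. The study's question was what these early T cells express in dependence on E2A.

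ZBTB proteins join an N-terminal BTB domain, through which they pair and recruit co-repressors such as the NCoR, BCOR and Sin3 complexes, to C2H2 zinc fingers that read DNA. Most act as transcriptional repressors, and the BTB domain of some also binds the ubiquitin ligase scaffold Cul3. In lymphocytes the family is known for lineage decisions: Zbtb7b directs thymocytes to the CD4 fate, Zbtb7a restrains Notch-driven T-cell fate in B-cell progenitors, and Zbtb1 and Zbtb17 are needed for early lymphoid development. E proteins bind the E-box, CANNTG.

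None of the 38 Zbtb genes passed the test between wild-type and E2A-deficient cells (limma on log2(intensity + 1), Benjamini-Hochberg adjusted over all 18193 genes, threshold 0.05). Of all genes, 630, or 3.46%, were called, 2.4% higher and 1.06% lower in E2A-deficient cells. Of the members, 5 had an unadjusted p under 0.05, or 13.2%, against 15.7% of all genes. The lowest adjusted p among them was 0.0834, for Zbtb18, and log2 changes ran from -0.49 (Zbtb18) to 0.36 (Zbtb22). Changes are E2A deficient minus wild type throughout, and intensities are on the linear scale as deposited. Zbtb16, the member left out, was called higher without E2A: it gave 337, 250.2 and 242 in wild type and 669, 751 and 758 in E2A-deficient cells (log2 change 1.40, SE 0.130, limma adjusted p = 0.00213). With it the symbol pattern would give 1 call.

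The targeted gene was lower as labelled: Tcf3 gave 477, 421 and 414 on the wild-type arrays and 236, 229 and 281 on the E2A-deficient arrays (log2 change -0.81, limma adjusted p = 0.00532). Array medians lay between 77.4 and 79.0 and the upper quartile of all probe sets was 134. Of the DN2-stage markers, Kit, Il2ra, Cd44, Ptprc and Il7r did not pass the test and all had means above that quartile in both groups, while Thy1 changed by -1.32 and Gata3 by 1.45. The beta-actin control's signal at its 5' end relative to its 3' end, a measure of how far transcripts were copied, was 0.104, 0.162 and 0.0981 on the wild-type arrays and 0.165, 0.160 and 0.149 on the E2A-deficient arrays. Wild-type replicates 1 and 3 were thus below the other 4 arrays. A single wild-type array, replicate 3, had Xist at 58.7 while the other 5 arrays had 1247 to 4456. Nothing in the labels says that the replicates came from separate animals, so p-values measure the spread between these samples only. In sorted bulk cells, fewer cells of a type and less RNA per cell cannot be told apart.

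Markers of other cell types were mostly dim and some of their summed levels moved with genotype; their part in the values of the Zbtb genes was not tested. The later T-cell genes Cd4, Cd8a and Cd8b1 had means between 66.6 and 90.2, while Cd5 fell from 119 ± 17.5 to 72.1 ± 2.89 (SD, n = 3; log2 change -0.70, limma adjusted p = 0.0171). The 5 measured genes of that list summed to 418 to 447 in wild type and 379 to 394 in E2A-deficient cells. Of 8 myeloid markers 0 rose and 2 fell, namely Ctsg (-0.87, limma adjusted p = 0.00215) and Lyz2 (-0.50, 0.0151), and sums of 1400 to 1672 and 1472 to 1712 overlapped. Most of each sum was Mpo, which was bright in both groups, with means of 907 in wild type and 1036 in E2A-deficient cells. Its change of 0.19 did not pass (limma adjusted p = 0.565). Of 7 mesenchymal and endothelial markers 1 fell, Pdgfrb (-0.90, limma adjusted p = 6.77e-04), and sums were 2081 to 2221 and 1330 to 1388. Those sums followed Pdgfrb alone, with means of 1737 in wild type and 930 in E2A-deficient cells. The other 6 did not pass, and their group means lay between 65.3 and 86.2. The calls of Cd5 and Lyz2 ended on removal of wild-type replicate 3 (both 0.0501) or of E2A-deficient replicate 1 (0.0536 and 0.0577) or 2 (0.0635 and 0.0591), that of Cd5 also on removal of E2A-deficient replicate 3 (0.0708), as limma adjusted p-values. In the other lists 0 genes were called by limma, against 3.46% of all genes. Sums were 535 to 575 and 576 to 594 for 7 conventional dendritic markers (smallest p in Ccr7, 0.45, then Batf3 and Itgax), and 550 to 584 and 526 to 549 for 7 B-lineage markers (Vpreb1, -0.32, then Ms4a1 and Ebf1). They were 636 to 764 and 776 to 922 for 5 erythroid markers (Tfrc, 0.33, then Epor and Klf1), and 546 to 581 and 591 to 639 for 7 thymic epithelial markers (Krt8, 0.46, then Epcam and Krt5). The unadjusted p was under 0.05 in 1 gene of each of these 4 lists, the one named first, against 15.7% of all genes.

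RefSeq promoter windows (GRCm38.p6, 250 bases before to 50 after a start) were found for 34 of the 38 members. The windows of Zbtb18 and Zbtb22 are shown because these were the members with the lowest and the highest log2 change. Sequences read 5′ to 3′ on the gene's strand, the plus strand in each, and capitals mark every CANNTG. Zbtb18 has 5 listed starts, and the first window and the one with the most E-boxes are given. The first lies at chr1:177442101-177442400, the other at chr1:177444403-177444702, and the Zbtb22 window at chr17:33915926-33916225.
Zbtb18, first window: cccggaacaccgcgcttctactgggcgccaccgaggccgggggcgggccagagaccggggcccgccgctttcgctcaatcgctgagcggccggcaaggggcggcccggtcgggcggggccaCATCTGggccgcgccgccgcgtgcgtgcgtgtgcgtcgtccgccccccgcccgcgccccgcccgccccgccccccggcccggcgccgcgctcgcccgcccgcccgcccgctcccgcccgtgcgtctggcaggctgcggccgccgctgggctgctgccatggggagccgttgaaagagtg
Zbtb18, window with most E-boxes: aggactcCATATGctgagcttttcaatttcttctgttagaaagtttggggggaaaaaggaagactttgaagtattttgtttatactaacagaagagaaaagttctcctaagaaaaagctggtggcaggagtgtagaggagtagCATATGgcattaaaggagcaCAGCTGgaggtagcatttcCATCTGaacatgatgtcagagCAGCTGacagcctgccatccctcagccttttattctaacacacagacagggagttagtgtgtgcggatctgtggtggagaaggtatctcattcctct
Zbtb22: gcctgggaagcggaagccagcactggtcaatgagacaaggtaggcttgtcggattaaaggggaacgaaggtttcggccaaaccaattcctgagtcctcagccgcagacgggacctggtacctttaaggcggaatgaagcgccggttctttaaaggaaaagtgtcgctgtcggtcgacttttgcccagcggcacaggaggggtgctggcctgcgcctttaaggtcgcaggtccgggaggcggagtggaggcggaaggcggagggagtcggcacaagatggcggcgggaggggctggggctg
The first Zbtb18 window held 1 E-box and the other 5, of which 2 were CAGCTG, while the Zbtb22 window held 0. The Zbtb18 windows not shown held 4, 1 and 4. The first of these, chr1:177444411-177444710, overlaps most of the shown window with 5, so its 4 repeat sites already shown. Of other members with an unadjusted limma p under 0.05, Zbtb12 and Zbtb4 held 0 and Zbtb20 held 2. Over the first listed window of each gene, CANNTG occurred in 16 of 34 member windows (47.1%) against 67.0% of 14452 windows of genes on the array. CACCTG, searched on both strands, occurred in 11.8% against 19.7%, and CAGCTG in 5.88% against 16.1%. Both are also matches to CANNTG, and CANNTG and CAGCTG read the same on both strands. Member windows were richer in CG, with a median of 25.5 CG dinucleotides per 300 bases against 17.0 and a median GC content of 65.7% against 58.7%. Among members the Zbtb46 window held 6 E-boxes, those of Zbtb3 and Zbtb38 held 3 each, and 18 held 0. A match is a description of the letters and no evidence of binding.

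Across the family, 19 members had positive and 19 negative changes, with a median of -0.0052, against a median of 0.015 and 56.5% positive over all genes. The median size of a change was 0.083 in members and 0.069 in all genes. In 34 members, or 89.5%, the change was smaller than 0.25, against 86.8% of all genes. No member reached 0.5, which 580 genes, or 3.19%, did. All 38 of the 95% limma intervals, taken one gene at a time, lay within a 2-fold change in either direction, as did 98.4% of those of all genes. Within 0.5 on the log2 scale lay 33 of the members' intervals, or 86.8%, against 85.5% of those of all genes. Interval half-widths of the members ran from 0.139 to 0.399. These bounds hold for the intensities as deposited, whose lowest value was 41.4. Of the members, 20 had a mean at or below the upper quartile, where such a floor compresses folds.

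**Figure D1:**
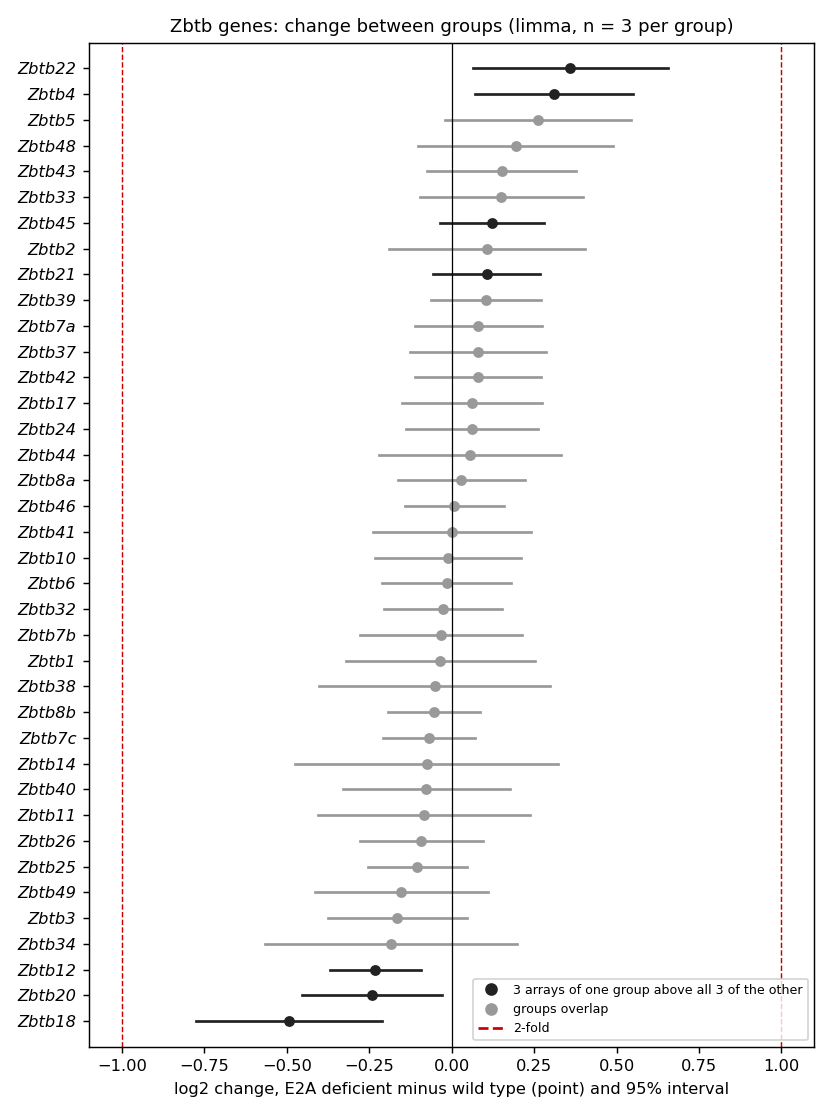
Log2 change of the 38 Zbtb genes between E2A-deficient and wild-type cells, with 95% limma intervals (n = 3 arrays per group). Dashed lines mark a 2-fold change, which no interval reaches, and the 7 genes in black are those whose groups did not overlap.

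**Figure D2:**
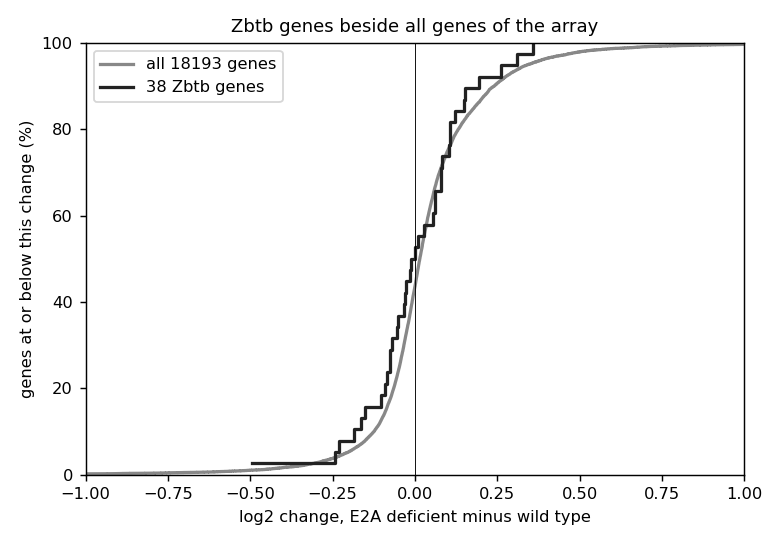
Share of genes at or below each log2 change, for the 38 Zbtb genes and for all 18193 genes. The members end at -0.49 and 0.36. Of all genes, 0.599% have a change of at least 1 in size, where the axis ends, and a larger set reaches further by number alone.

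The arrays of the groups did not overlap in 7 members, or 18.4%, against 19.9% of all genes. Of these, 4 members were higher and 3 lower in E2A-deficient cells, against 13.2% and 6.74% of all genes. Zbtb18 encodes RP58, a repressor best known from cortical neurons. Its intensity was 472, 389 and 397 in wild type and 257, 343 and 295 in E2A-deficient cells, so every E2A-deficient array was below every wild-type array. The means were 419 ± 45.9 and 298 ± 42.8 (SD, n = 3), which gives -0.49 on the log2 scale (SE 0.121, 95% interval -0.78 to -0.21) and did not pass (limma adjusted p = 0.0834). Zbtb18 was named alone by 1 probe set, so no other probe set was set beside it. Among only genes brighter than the median, where fewer genes are tested, the same change passed (limma adjusted p = 0.0378), and over the other alternatives the adjusted p was between 0.0539 and 0.527.

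Zbtb12 and Zbtb22 both lie in the major histocompatibility region of chromosome 17. Zbtb12 gave 83.0, 88.1 and 89.0 in wild type and 73.0, 76.6 and 71.5 in E2A-deficient cells. All 6 values were near the array median, and the small step between groups (-0.23, SE 0.0595, limma adjusted p = 0.0980) came with a narrow spread. Zbtb22 went the other way, with 221, 271 and 190.2 in wild type and 278, 312 and 278 in E2A-deficient cells. The wild-type arrays alone spanned 190.2 to 271, and the highest of them came close to the lowest E2A-deficient one (log2 change 0.36, SE 0.126, limma adjusted p = 0.211). That highest wild-type array, replicate 2, was also the one with the highest beta-actin ratio of its group. With that ratio as a covariate the change of Zbtb22 was 0.11 (limma adjusted p = 0.872). The ratio was not balanced between genotypes, being lowest in wild-type replicates 1 and 3, so ratio and genotype cannot be fully told apart. With the same covariate the targeted gene Tcf3 also lost its call (limma adjusted p = 0.106).

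Some members, 3 in all, encode zinc-finger proteins known to bind methylated CpG, namely Zbtb33 (Kaiso), Zbtb4 and Zbtb38. Zbtb4 gave 92.7, 94.3 and 100.3 in wild type and 104, 138 and 117 in E2A-deficient cells. The groups did not overlap, but the E2A-deficient arrays were spread more widely, and the change of 0.31 (SE 0.102) did not pass (limma adjusted p = 0.183). Another, dimmer probe set of Zbtb4 gave 65.6, 79.4 and 77.0 against 101, 98.7 and 94.9. This was the member probe set nearest to the threshold in the fit per probe set (log2 change 0.41, SE 0.0812, limma adjusted p = 0.0636), while the remaining pair of Zbtb4 probe sets gave -0.015 and -0.054. Zbtb33, which lies on the X chromosome, gave 332, 413 and 393 in wild type and 451, 437 and 375 in E2A-deficient cells (0.15, SE 0.106). The groups overlapped, and the wild-type array low in Xist lay between the others of its group. For Zbtb38 the brightest probe set gave 164, 175 and 115 against 136, 147 and 149 (-0.052, SE 0.149). Its wild-type arrays enclosed all 3 E2A-deficient ones. Another Zbtb38 probe set gave 107, 117 and 103 against 96.3, 89.5 and 90.1 without overlap (-0.24, limma adjusted p = 0.162 over all probe sets).

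Zbtb20, a repressor needed in plasma cells, liver and hippocampus, gave 134, 132 and 124 in wild type and 121, 114 and 96.5 in E2A-deficient cells. The E2A-deficient arrays were all lower, by a step comparable to their own spread (-0.24, SE 0.0906, limma adjusted p = 0.246). Zbtb20 had 9 probe sets, the most of any member, and their changes ran from -0.25 to 0.12. Averaged over the 9, the change was -0.079. The remaining members without overlap were Zbtb45, with 190.0, 198 and 174 against 210, 201 and 199 (0.12), and Zbtb21, with 126, 127 and 111 against 131, 130.4 and 129.9 (0.11). In both, the gap between the groups was smaller than the spread within wild type, and the other 2 probe sets of Zbtb21 were at -0.088 and -0.16.

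Members known for a part in lymphoid development or activation, beside Zbtb20, had overlapping groups. Zbtb7b, the CD4-lineage factor ThPOK, gave 119, 88.7 and 102 in wild type and 103, 98.0 and 99.8 in E2A-deficient cells. The wild-type arrays enclosed the others, and the interval of the change, -0.28 to 0.21, leaves out folds of deposited intensity above 1.16 and below 0.825. All 6 values lay below the upper quartile of 134, where the floor compresses folds. Zbtb7a, also called LRF, which represses the tumour suppressor product Arf, gave 166, 153 and 135 against 156, 163 and 160 (0.081, interval -0.11 to 0.27). Its brightest probe set is shared between transcripts, and the other 2 gave -0.067 and -0.098, so its sign is not settled. Zbtb17, or Miz-1, a partner of Myc that early lymphoid cells need for interleukin-7 signalling, gave 330, 269 and 326 against 322, 305 and 334 (0.062, interval -0.15 to 0.28). Here 1 wild-type array was low and the other 5 were alike.

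Zbtb1, whose loss blocks T-cell development in mice, gave 179, 158 and 184 in wild type and 164, 203 and 146 in E2A-deficient cells. Its E2A-deficient arrays were spread around the wild-type ones (-0.034, interval -0.32 to 0.25). Zbtb25 is the divergent neighbour of Zbtb1 on chromosome 12, with first listed starts 960 bases apart. It gave 123, 126 and 137 against 123, 115 and 120 (-0.10, SE 0.0642), and the groups overlapped. Zbtb24, the gene mutated in a form of the immunodeficiency, centromeric instability and facial anomalies syndrome, gave 150.5, 166 and 153 against 145, 171 and 175 (0.060, SE 0.0856). Zbtb32, an inducible repressor of activated lymphocytes, gave 72.9, 73.0 and 83.5 against 78.7, 75.0 and 70.9. These values lie near the array median, and its change was -0.028. Zbtb46, a marker of conventional dendritic cells, gave 82.9, 79.1 and 78.1 against 80.2, 85.3 and 76.2. Its 4 probe sets had changes between -0.045 and 0.0082.

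**Figure D3:**
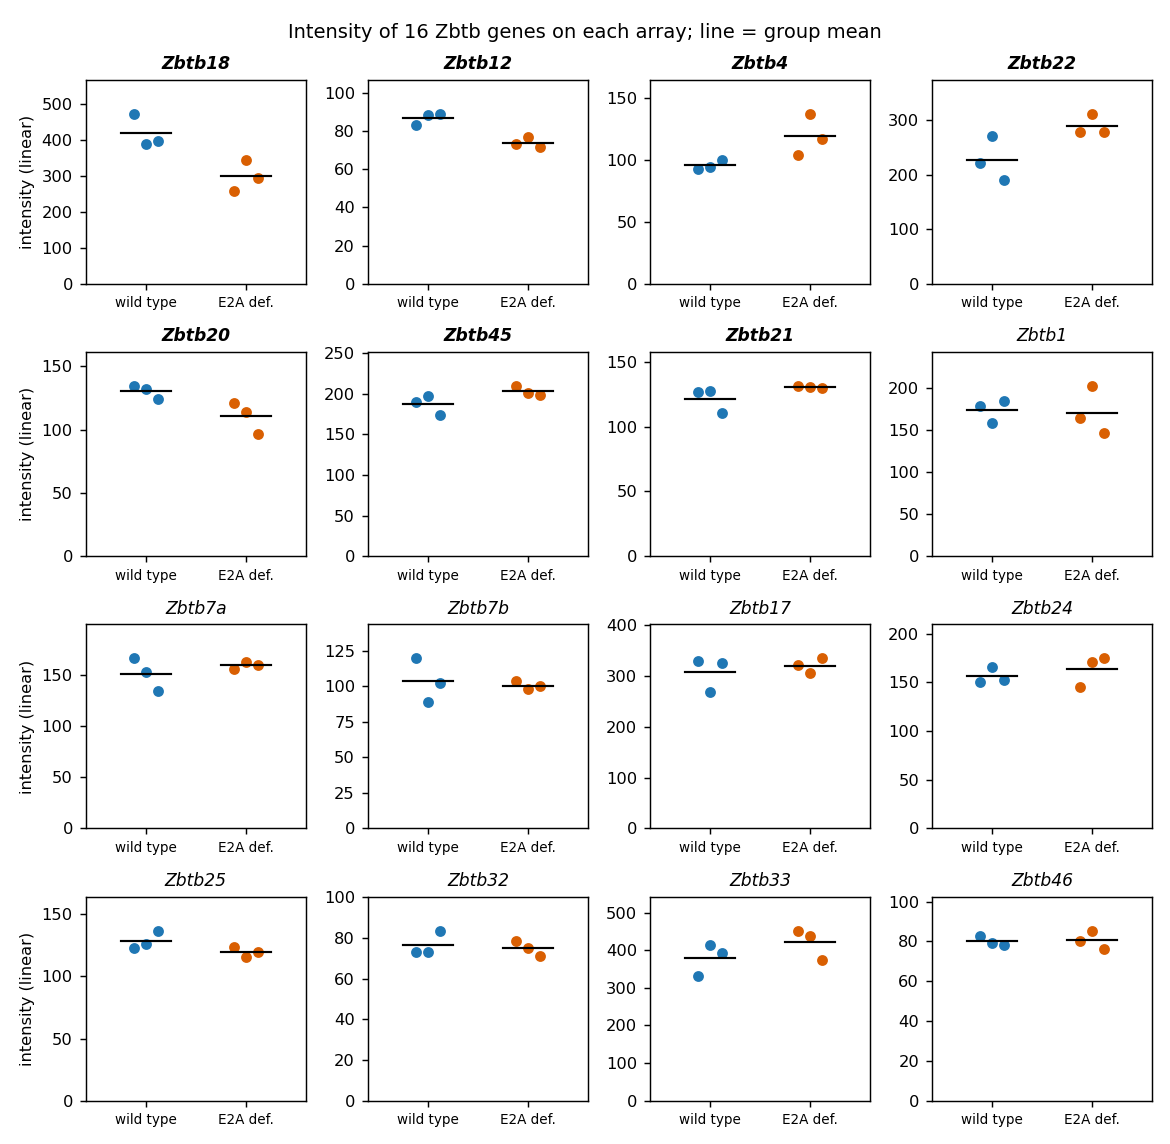
Linear intensity of 16 Zbtb genes on each of the 6 arrays, with the group mean as a line (bold names: 7 genes without overlap; plain names: 9 genes with a role in blood cells or methyl-CpG binding). Zbtb18 and Zbtb12 show the clearest step down, and in the 9 plain panels the points of the groups overlap.

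Zbtb5, which represses the cell-cycle inhibitor gene Cdkn1a, gave 181, 223 and 200.0 in wild type and 284, 226 and 217 in E2A-deficient cells. A single E2A-deficient array, replicate 1, was well above the rest and the others lay near the top of the wild-type range (0.26, SE 0.120, limma adjusted p = 0.364). Zbtb2, another reported repressor of Cdkn1a, gave 190, 159 and 154 against 206, 185 and 152 (0.11). Cdkn1a itself had a change of -0.052 and did not pass. Zbtb48, a telomere-binding protein, gave 151, 151 and 207 against 179, 199 and 198. Its wild-type arrays were split, with replicate 3 above all others (0.19, SE 0.127), and without that array the change was 0.34 (limma adjusted p = 0.0809).

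The other members by rank of p were Zbtb3, with 108, 85.4 and 100.2 in wild type and 88.5, 87.6 and 84.2 in E2A-deficient cells (-0.16), and Zbtb43, with 187, 183 and 180.2 against 236, 198 and 181 (0.15). In Zbtb3 the low wild-type array fell among the E2A-deficient ones. In Zbtb43 the E2A-deficient arrays at 236 and 198 were above all wild-type ones, and the one at 181 lay among them. Zbtb39 gave 76.5, 89.5 and 82.0 against 86.2, 88.9 and 91.2 (0.10), and Zbtb49 gave 122, 93.0 and 94.4 against 92.6, 86.2 and 97.4 (-0.15). The widest interval among all members belonged to Zbtb14, a repressor first described on the Myc promoter. It gave 417, 440 and 333 against 447, 399 and 292, with replicate 3 lowest in both groups (-0.076, interval -0.48 to 0.32). The brightest probe sets of Zbtb14 and Zbtb3 are of a shared kind (_x_at). Other Zbtb14 probe sets were dimmer, with wild-type means of 208, 79.4 and 77.8 and changes of -0.17, -0.12 and -0.074. Changes of the remaining 13 members lay between -0.18 (Zbtb34) and 0.080 (Zbtb37). Below 0 were Zbtb26 (-0.092), Zbtb11 (-0.085), Zbtb40 (-0.077), Zbtb7c (-0.069), Zbtb8b (-0.055), Zbtb6 (-0.015) and Zbtb10 (-0.012). Above 0 were Zbtb42 (0.079), Zbtb44 (0.055), Zbtb8a (0.029) and Zbtb41 (0.0016). Adjusted p-values of these 13 were 0.717 or higher.

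Where a gene had several probe sets, they often disagreed on the sign. In all, 83 probe sets named a member alone, and 25 members had more than 1. Of these 25, 9 had all probe sets on one side of 0 and 16 had both signs. In the fit per probe set, 0 of the 83 were called by limma, an unadjusted p under 0.05 was found for 7 (8.43%), and 10 (12.05%) did not overlap between groups. Over all 45037 probe sets, 1.79% were called, 12.5% had such a p and 16.9% did not overlap. The members read on one side by all their probe sets included Zbtb14 (4 probe sets, -0.17 to -0.074), Zbtb38 (3, -0.24 to -0.052) and Zbtb44 (3, 0.0022 to 0.23).

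**Figure D4:**
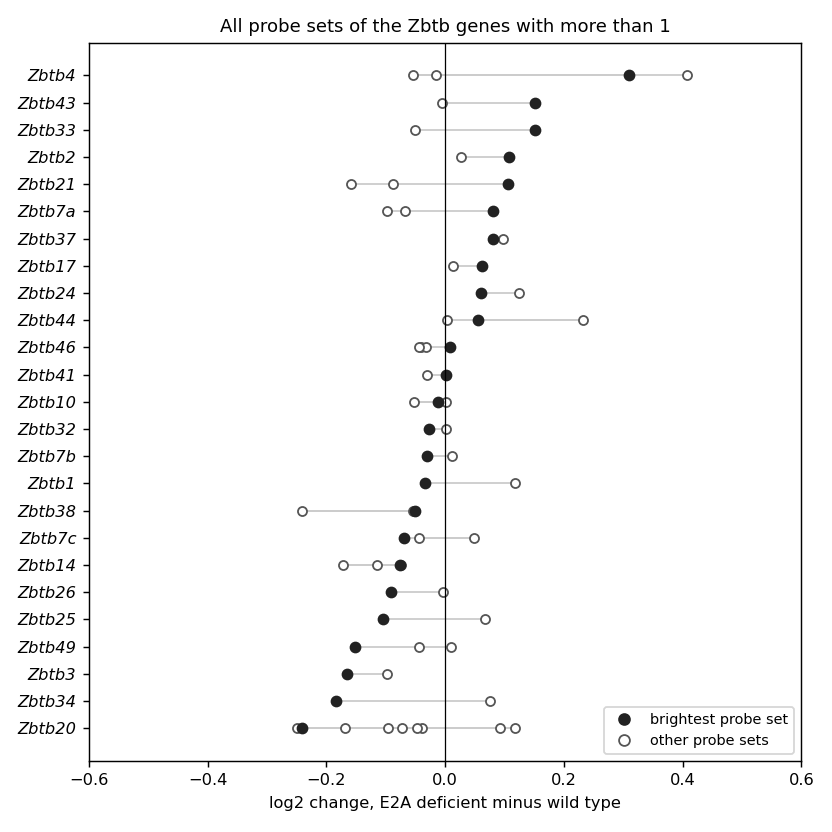
Log2 change of every probe set of the 25 Zbtb genes with more than 1, with the brightest filled. The probe sets of Zbtb20 run from -0.25 to 0.12 and those of Zbtb4 from -0.054 to 0.41, while those of Zbtb17 and Zbtb37 stay on the side of their brightest one.

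In all, 8 members form 4 pairs of neighbours with no other protein-coding gene between them in the RefSeq gene table (GRCm38.p6). Zbtb25 and Zbtb1 are divergent, and the other pairs run in the same direction. Zbtb34 and Zbtb43 lie 37208 bases apart by their first listed starts and had changes of -0.18 and 0.15. Zbtb6 and Zbtb26, 12253 bases apart, had -0.015 and -0.092, and Zbtb8a and Zbtb8b, 62790 bases apart, had 0.029 and -0.055. None of the 8 separated the groups, which 19.9% of all genes did. A set of 8 is too small to tell 0 from that share.

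Of BTB zinc-finger genes that carry other symbols, 8 were measured and 0 passed by limma, against 3.46% of all genes. The unadjusted p was under 0.05 in 0, against 15.7% of all genes. A list of 8 is too short to tell 0 from these shares. The median change was 0.018 against 0.015 over all genes. The smallest p was that of Patz1, a thymocyte regulator (491 ± 10.1 in wild type and 440.1 ± 32.8 in E2A-deficient cells, SD, n = 3, log2 change -0.16, limma adjusted p = 0.326). Its groups did not overlap, as in 19.9% of all genes. Zfp131 (-0.12) and Hic1 (0.049) followed. Bcl6, the repressor of follicular helper T cells and germinal centres, was at 73.0 ± 0.275 and 74.7 ± 3.17.

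Among 19 measured co-repressor and cullin partners of these proteins, 1 gene rose and 1 fell, while 17 did not pass. Over all genes, 2.4% were called higher and 1.06% lower. The median change of the 19 was 0.10, against 0.015 over all genes. The histone deacetylase gene Hdac1 rose from 423 ± 24.8 to 596 ± 52.0 (SD, n = 3), or by 0.49 on the log2 scale (SE 0.0817, limma adjusted p = 0.0219). The NCoR-complex subunit gene Tbl1xr1 fell from 623 ± 12.5 to 466 ± 36.4 (-0.42, SE 0.0702, limma adjusted p = 0.0220). The call of Hdac1 was lost with the replicate block (limma adjusted p = 0.0753), with the beta-actin covariate (0.229) and without wild-type replicate 2 (0.0630) or 3 (0.0653) or E2A-deficient replicate 1 (0.0699) or 3 (0.0626), over its alternatives 0.0137 to 0.229. For Tbl1xr1, 9 alternatives ended the call, among them the removal of wild-type replicate 1 (0.0602 as limma adjusted p), 2 (0.0604) or 3 (0.0673) or of E2A-deficient replicate 2 (0.0832) or 3 (0.0801), the replicate block (0.0513) and averaged probe sets (-0.12 on the log2 scale, 0.54). Without shared probe sets its change turned to 0.053 (0.918), and over its alternatives the adjusted p was 0.0212 to 0.918. The BCL6 co-repressor gene Bcor was at 162 ± 20.6 and 223 ± 21.3 without overlap (0.46, limma adjusted p = 0.0724). Cul3 was at 440.2 ± 31.0 and 516 ± 47.9 (0.23), and Ctbp1 at 830.4 ± 53.9 and 993 ± 106 (0.25). Neither passed.

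Of 15 measured genes with a textbook tie to Zbtb7a, Zbtb7b, Zbtb17 or Zbtb1, 2 rose, 0 fell and 13 did not pass, against 2.4% of all genes called higher and 1.06% lower. The 2 were Gata3, which acts upstream of Zbtb7b in CD4 cells, and the death gene Bcl2l11, which LRF represses in erythroid cells. Bcl2l11 rose from 215 ± 10.7 to 313 ± 26.9 (SD, n = 3; log2 change 0.54, SE 0.0782, limma adjusted p = 0.0133). Its call ended on removal of wild-type replicate 2 (limma adjusted p = 0.0525), with averaged probe sets (0.20 on the log2 scale, 0.0739) and with the beta-actin covariate (0.152), over its alternatives 0.0085 to 0.152. Cdkn2a, which encodes Arf, was at 60.1 ± 2.85 and 62.1 ± 0.883. Socs1, which Miz-1 represses in early lymphoid cells, was at 77.5 ± 4.47 and 87.2 ± 3.56 (0.17), and Il7r at 536 ± 104 and 414 ± 89.4 (-0.37). Neither passed.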

How the data were processed

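Total RNA of sorted DN2 cells was labelled as biotin-cRNA by a small-sample protocol that has a repeated round of in vitro transcription, per the labels' protocols, which reads mostly 3' ends. The authors deposited 1 linear intensity per probe set and array. The submitters' processing notes name RMA, whose version, genome build, filters and return to the linear scale are not given in the sources used here. Of 45101 probe sets, 64 controls were left out. The array annotation named 1 gene for 34945, several for 932 and none for 9160. A gene was read by its brightest probe set, by mean log2(intensity + 1) over the 6 arrays.

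Groups and replicate numbers come from the labels. The genotypes were compared per gene on log2(intensity + 1), with limma 3.58.1 in R 4.3.3 (lmFit, eBayes, two-sided, Benjamini-Hochberg over all 18193 genes, threshold 0.05), with no further normalization or filter. No p was adjusted over the members. The fit was tested on simulated data. Members and gene lists were chosen with earlier results of these data known. The text describes in full the 10 members with the smallest p and those with a known role in blood cells, gives the change of every other member, and names called genes of the other lists or their 3 smallest p. Listed genes that were not measured are not analysed here. Same-numbered arrays of the groups did not deviate together (correlations of 0.017, 0.017 and -0.042 over genes), so replicate numbers were not used for pairing. Alternatives were a replicate block, each array left out, no pseudocount, a brightness filter, quantile normalization, median centring, array weights, robust variances with an intensity trend, averaging a gene's probe sets, leaving out shared probe sets (_s_at, _x_at) and a covariate for the beta-actin ratio. The number of arrays limits precision. Figures were drawn with matplotlib 3.10.9 in Python 3.11.15.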

Additional observations from a re-analysis of the deposited data

How the results depend on the processing

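No member was called by limma under 15 of the 16 alternatives. The exception was the restriction to genes brighter than the median, with 29 members and 9096 genes tested, where 1 member, Zbtb18, passed. The main fit called 3.46% of all genes, and 1 call among 29 cannot be told from such a share. The count over all genes, 630, was 459 with the replicate block, under which 0 members were called, and 123 with the beta-actin ratio, which was not balanced between genotypes, added as a covariate. It was 533, 401 and 405 without wild-type replicates 1, 2 and 3 and 338, 381 and 320 without E2A-deficient replicates 1, 2 and 3, so from 320 to 533, while 0 members were called each time. Of the called genes 69.4% were higher in E2A-deficient cells, and 58.3% after quantile normalization. The sign of 22 members, among them Zbtb18, Zbtb12, Zbtb20, Zbtb4 and Zbtb22, held under every alternative that tested them, and that of 16 changed at least once, in 44 of 599 values, none called. After quantile normalization Zbtb17 was at -0.00073 and Zbtb41 at -0.010. With array weights Zbtb1 was at 0.013, Zbtb10 at 0.0058, Zbtb41 at -0.015 and Zbtb6 at 0.0050. With the mean of probe sets Zbtb1 was at 0.041, Zbtb21 at -0.047, Zbtb41 at -0.015, Zbtb46 at -0.027 and Zbtb7a at -0.028. Without shared probe sets Zbtb7a was at -0.067. With the beta-actin covariate Zbtb1 was at 0.059, Zbtb10 at 0.026, Zbtb32 at 0.025, Zbtb41 at -0.0083, Zbtb6 at 0.013, Zbtb7b at 0.14 and Zbtb8a at -0.082. With each array left out in turn, signs changed in Zbtb38 (-0.24 to 0.065), Zbtb41 (-0.085 to 0.086), Zbtb44 (-0.026 to 0.17), Zbtb7b (-0.14 to 0.077), Zbtb11 (-0.21 to 0.061), Zbtb14 (-0.21 to 0.10), Zbtb17 (-0.033 to 0.11), Zbtb1 (-0.16 to 0.071), Zbtb10 (-0.070 to 0.067), Zbtb32 (-0.064 to 0.037), Zbtb46 (-0.033 to 0.047), Zbtb6 (-0.097 to 0.031), Zbtb8a (-0.021 to 0.097) and Zbtb37 (-0.014 to 0.13). Among called genes outside the family, Tbl1xr1 was at 0.053 without shared probe sets, Tcf3 (limma adjusted p = 0.106), Gata3 (0.0521), Cd5 (0.123) and Lyz2 (0.200) lost their calls with the beta-actin covariate, and Thy1, Zbtb16, Ctsg and Pdgfrb lost none. The cause of these sign changes and lost calls was not tested. Zbtb18 and Zbtb12 were each named alone by 1 probe set, and members near the array median allow the least signal over background.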
